A study of Mus musculus with 9 samples.

Results

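The genes described here are 10 feedback genes of the ERK pathway in mouse retinal ganglion cells (RGCs): the phosphatase genes Dusp4, Dusp5 and Dusp6, the inhibitor genes Spry1, Spry2, Spry4 and Spred1, the transcription factor genes Etv4 and Etv5, and Phlda1. They were chosen by gene symbol from a list of known targets and inhibitors of this pathway, with earlier results of these data known. All 10 were found among the 22322 genes of the deposited data. Each of the 10 also passed the filter on low counts, which kept 12145 genes for testing.

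Growth factors bind receptor tyrosine kinases at the cell surface, which switch on RAS, the RAF and MEK kinases and at last the kinases ERK, and active ERK enters the nucleus and raises the transcription of many genes. Several of those genes act back on the pathway: dual-specificity phosphatases remove the activating phosphates from ERK, and Sprouty and Spred proteins act further up, between receptor and RAF. For that reason their transcripts are widely read as a record of how much signal has passed through ERK, and in neurons this pathway carries the response to neurotrophic factors.

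RNA was sequenced from 3 groups of 3 wells of cultured wild-type mouse RGCs, 9 libraries in all. Normal RGCs received neither agent. Aging RGCs were treated with D-galactose, a sugar used to bring on senescence-like changes, at 30 mg/mL. Aging RGCs + USCs medium received D-galactose and then medium conditioned by urine-derived stem cells (USCs), with those cells removed. D-galactose was therefore shared by both treated groups, and no group received the medium without it. Nor did any group receive unconditioned USCs medium. The study cultured USCs in a special urine stem cell medium and RGCs in a high glucose medium with serum. Conditioning and a change of base medium therefore cannot be told apart. The cells were bought from a supplier, and the wells of a group were separate wells of that culture, so p-values measure the spread between these wells.

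Library totals were 18189610 to 22342283 expected counts, and no library stood apart in depth. The label of retinal ganglion cells was only partly met by its 12 markers. Pou4f2 and Pou4f3, which encode defining transcription factors of these cells, were at 0 in all 9 libraries, and Thy1 had at most 1 count. In normal RGCs the means were 31.5 FPKM for Rbpms, 19.35 for Nefl, 8.14 for Isl1 and 2.58 for Tubb3. Sncg was there at 0.32 FPKM, Nefm at 0.157, Pou4f1 at 0.103, Slc17a6 at 0.023 and Nefh at 0.0033. FPKM is the number of fragments scaled to transcript length and to library size. Of 8 epithelial markers, the keratin genes Krt8, Krt18 and Krt19 had means of 215, 229 and 238 FPKM in normal RGCs. The others were low there, with Epcam at 1.15 FPKM, Cldn4 at 0.06, Cdh1 at 0.023, Krt14 at 0.02 and Krt7 at 0. In these bulk samples fewer cells of a type and less RNA per cell cannot be told apart.

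Compared with normal RGCs, 6 of the 10 feedback genes were lower in aging RGCs and none was higher. The 6 were Dusp5, Dusp6, Spry4, Spred1, Etv5 and Phlda1, at a p under 0.05 in edgeR's quasi-likelihood F test, adjusted by Benjamini and Hochberg's method over all 12145 genes. Of all genes tested, 23.0% passed as lower, 23.6% as higher and 46.5% in either direction. The median log2 difference was -0.25 over the 10 genes and 0.0018 over all genes tested. None of the 10 reached an absolute log2 difference of 1, which 2.65% of all genes did while passing the test (1.56% as lower).

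Addition of USCs medium to aging RGCs was again followed by lower levels of 6 of the 10 and higher levels of none. Here the 6 were Dusp4, Spry1, Spry2, Spry4, Spred1 and Phlda1, against 26.0% of all genes as lower, 27.1% as higher and 53.1% in either direction. The median log2 difference was -0.28 over the 10 genes and -0.0067 over all genes tested, and again none of the 10 reached an absolute value of 1, against 5.44% of all genes (4.21% as lower). Both comparisons use the aging libraries, so their values are given side by side and are not independent.

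From normal RGCs to aging RGCs + USCs medium, 8 of the 10 were lower and none was higher, the exceptions being Dusp5 and Etv4. In that comparison 29.9% of all genes passed as lower, 30.6% as higher and 60.5% in either direction. The median was -0.48 for the 10 genes and -0.013 for all genes tested. Spry1 and Phlda1 were lower by more than 1 on the log2 scale, as were 5.24% of all genes, and 6.72% passed with such a difference in either direction. The 3 libraries of one group all lay below the 3 of the other for 6, 6 and 8 of the 10 genes in the 3 comparisons in turn, and for 26.0%, 29.3% and 31.9% of all genes tested.

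**Figure D1:**
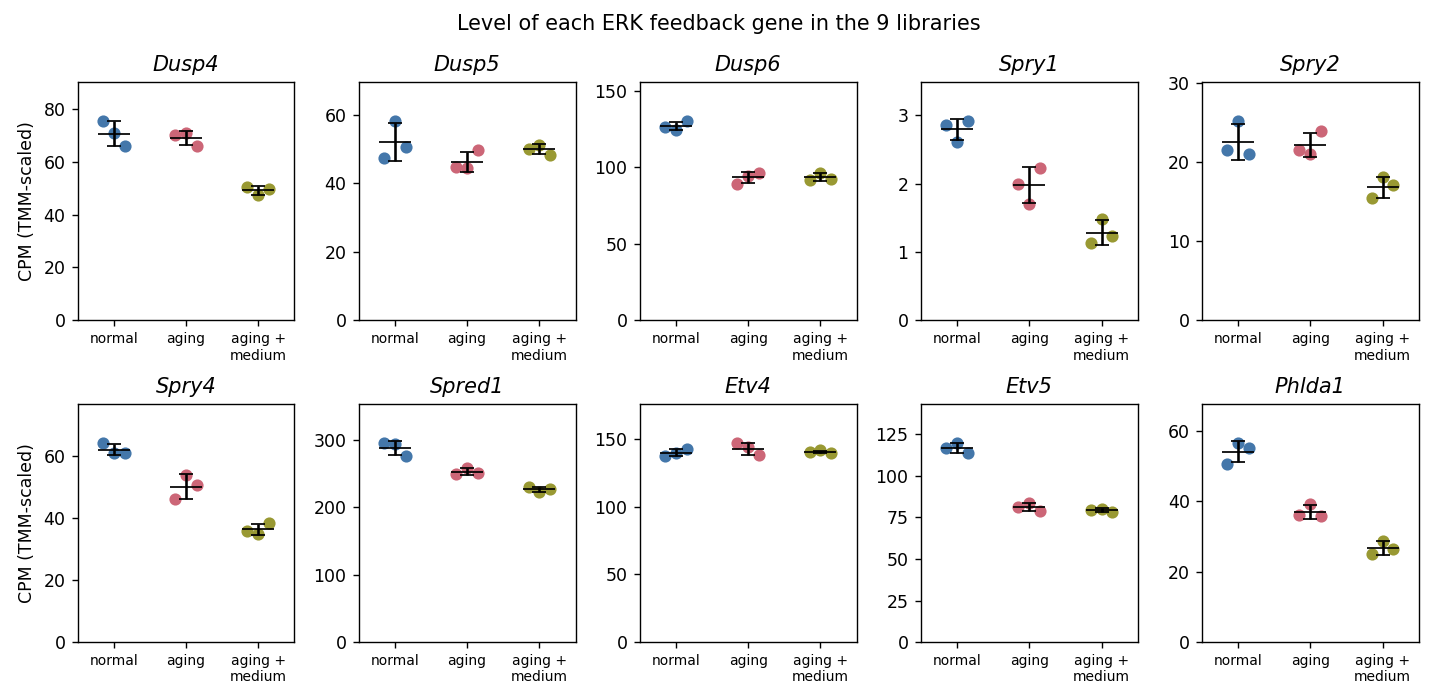
Normalised counts (CPM, vertical axes, each from 0) of the 10 feedback genes in each of the 9 libraries, by group, with points for wells and bars for the mean and SD (n = 3). Dusp6 and Etv5 are low in both treated groups alike, Dusp4 and Spry2 drop in the wells with USCs medium, and Spry4 and Phlda1 are lower at each step.

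Dusp6 (ENSMUSG00000019960, chr10:99263231-99267489, plus strand of GRCm38, as for all genes here), which encodes a cytoplasmic phosphatase highly selective for ERK, was the phosphatase gene with the lowest adjusted p on D-galactose. In CPM, which is the normalised count scaled to library size, it stood at 126, 124 and 130.0 in the 3 wells of normal RGCs, at 89.2, 94.5 and 96.5 in aging RGCs, and at 91.4, 96.3 and 92.3 in aging RGCs + USCs medium. All normal wells lay above all others, and the wells of both treated groups overlapped. Dusp6 fell by 26.4% in aging RGCs (log2 difference -0.44, SE 0.0415, edgeR adjusted p = 9.3e-10). Medium against aging gave a log2 difference of -0.00053 with a 95% interval of -0.088 to 0.087 while medium against normal gave -0.44 (edgeR adjusted p = 3.3e-10).

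Dusp4 and Dusp5 encode phosphatases that act on ERK in the nucleus. Dusp4 (ENSMUSG00000031530, chr8:34807297-34819894, plus strand) stood at 75.2, 70.9 and 65.8 CPM in the normal wells, 70.2, 70.8 and 65.8 CPM in the aging wells and 50.2, 47.3 and 49.8 CPM in aging RGCs + USCs medium. Normal and aging wells overlapped, and the 3 medium wells lay below all 6 of them. Dusp4 was thus not called between aging and normal RGCs (log2 difference -0.037, 95% interval -0.14 to 0.069, edgeR adjusted p = 0.592) and fell by 28.7% with the medium (log2 difference -0.49, SE 0.0541, edgeR adjusted p = 1.34e-08).

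Dusp5 (ENSMUSG00000034765, chr19:53529109-53542431, plus strand) stood at 47.4, 58.2 and 50.8 CPM in the normal wells, 44.7, 44.6 and 49.7 CPM in the aging wells and 50.2, 51.4 and 48.4 CPM in aging RGCs + USCs medium. The 3 groups overlapped, and normal replicate 2 was the highest well of the 9. The gene passed as lower in aging RGCs (log2 difference -0.17, SE 0.0638, edgeR adjusted p = 0.0325), but without normal replicate 2 the difference was -0.085 (adjusted p = 0.274), and the call was also lost without aging replicate 1 (adjusted p = 0.112) or aging replicate 2 (adjusted p = 0.121), by DESeq2 and by limma on FPKM, in all in 7 of 19 other settings. Medium against aging gave 0.11 (95% interval -0.023 to 0.24, edgeR adjusted p = 0.157), and medium against normal gave -0.058 (edgeR adjusted p = 0.44). Dusp5 overlaps an antisense gene, and the sources used here do not say whether the counting used strand.

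The DNA just before these genes was searched for a few strings of letters associated with ERK-responsive factors. It is given for the 3 genes that held a match. Promoters of 6 of the 10 genes (Spred1, Spry1, Dusp6, Spry2, Etv5 and Dusp5) were matched in the RefSeq table on GRCm38.p6. Windows of the 250 bases before each start were searched on both strands, in members and in all 32851 promoters. Capitals mark CGGAA, called the ETS core here and read as TTCCG on the other strand, and the CArG box. ETS family proteins such as Etv4 and Etv5 recognise the first, and serum response factor recognises the second.
Dusp6, chr10:99262981-99263230, plus strand: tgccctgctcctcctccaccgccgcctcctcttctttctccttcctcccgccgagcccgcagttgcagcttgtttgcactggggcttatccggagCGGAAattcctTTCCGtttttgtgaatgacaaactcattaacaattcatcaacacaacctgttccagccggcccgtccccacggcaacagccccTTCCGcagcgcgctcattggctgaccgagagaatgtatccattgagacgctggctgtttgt
Spred1, chr2:117120821-117121070, plus strand: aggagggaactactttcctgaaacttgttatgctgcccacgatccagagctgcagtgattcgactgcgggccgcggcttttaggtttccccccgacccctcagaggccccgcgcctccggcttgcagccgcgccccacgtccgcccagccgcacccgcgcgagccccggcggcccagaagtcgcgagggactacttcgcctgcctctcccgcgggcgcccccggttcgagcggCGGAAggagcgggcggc
Dusp5, chr19:53528895-53529108, plus strand, without the 36 bases that lie inside the annotated gene: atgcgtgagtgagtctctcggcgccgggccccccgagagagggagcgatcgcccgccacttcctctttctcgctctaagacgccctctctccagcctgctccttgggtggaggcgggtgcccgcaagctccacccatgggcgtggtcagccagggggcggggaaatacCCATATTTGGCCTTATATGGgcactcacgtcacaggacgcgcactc
Positions are counted from the RefSeq start, which for Spred1 lies outside the annotated gene, upstream of its first base, and for Dusp5 lies 36 bases inside it, so that the ETS core of Dusp5 falls within that gene. The ETS core begins at 155, 144 and 61 bases before the start of Dusp6, at 17 bases before that of Spred1 and, in the bases not shown, at 10 bases before that of Dusp5. It was searched after the longer form CCGGAA had been found in none of the members' promoters and in 12.0% of all promoters, and it is common, with 25.2% of all promoters holding it. Dusp5 alone among those matched held a CArG box, as 1.47% of all promoters do, and it held 2 that lie end to end, CCATATTTGG and CCTTATATGG, at 82 and 72 bases before the start. Neither the cyclic AMP element TGACGTCA (1.55% of all promoters) nor the AP-1 site TGANTCA (6.75%) was found in a member's window. These are matches of letters, and forms of the ETS site other than CCGGAA and CGGAA were not searched. In aging against normal RGCs these 3 genes had log2 differences of -0.44 (Dusp6), -0.19 (Spred1) and -0.17 (Dusp5). The matched genes whose windows held none of the strings searched had -0.52 (Etv5), -0.50 (Spry1, not called) and -0.025 (Spry2, not called). Whether the matches go with the levels was not tested.

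Spred1 (ENSMUSG00000027351, chr2:117121374-117182279, plus strand) was the most abundant of the Sprouty and Spred genes, and it recruits neurofibromin, which switches RAS off at the membrane. The wells of normal RGCs held 295, 294 and 276 CPM, those of aging RGCs 249.5, 258 and 251 CPM, and those of aging RGCs + USCs medium 230.0, 223 and 227 CPM. The 3 groups did not overlap, and each lay below the one before it. Spred1 fell by 12.3% in aging RGCs (log2 difference -0.19, SE 0.0344, edgeR adjusted p = 4.82e-05) and then fell by 10.4% with the medium (log2 difference -0.16, SE 0.0349, edgeR adjusted p = 0.000372).

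Spry4 (ENSMUSG00000024427, chr18:38586247-38601415, minus strand), an inhibitor of RAS and RAF activation by growth factor receptors, showed the same order with larger steps. It stood at 63.9, 60.7 and 60.9 CPM in the normal wells, 45.9, 53.7 and 50.5 CPM in the aging wells and 35.8, 34.8 and 38.2 CPM in aging RGCs + USCs medium, again with no overlap between groups. The gene fell by 19.1% in aging RGCs (log2 difference -0.31, SE 0.0566, edgeR adjusted p = 5.8e-05) and fell by 27.5% with the medium (log2 difference -0.46, SE 0.0602, edgeR adjusted p = 2.2e-07), which left aging RGCs + USCs medium 41.4% below normal RGCs. A pair of small RNA genes lies on the strand opposite Spry4.

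Spry2 (ENSMUSG00000022114, chr14:105891947-105896819, minus strand), another Sprouty inhibitor of receptor signalling, followed the pattern of Dusp4. Its values were 21.5, 25.2 and 21.1 CPM in normal RGCs, 21.5, 21.0 and 24.0 CPM in aging RGCs, and 15.4, 18.1 and 17.0 CPM in aging RGCs + USCs medium. Normal and aging wells overlapped, with a log2 difference of -0.025 (95% interval -0.19 to 0.15, edgeR adjusted p = 0.832). With the medium Spry2 fell by 24.0% (log2 difference -0.40, SE 0.0868, edgeR adjusted p = 0.000345), and its 3 medium wells lay below the other 6.

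Spry1 (ENSMUSG00000037211, chr3:37639947-37644598, plus strand) was the rarest of the 10, with 22 to 66 counts per library. It stood at 2.86, 2.62 and 2.91 CPM in the normal wells, 2.00, 1.70 and 2.23 CPM in the aging wells and 1.13, 1.49 and 1.23 CPM in aging RGCs + USCs medium, and the 3 groups did not overlap. The step to aging RGCs did not pass the test (log2 difference -0.50, 95% interval -0.97 to -0.029, edgeR adjusted p = 0.0759), but Spry1 was called lower there by limma on FPKM in all 3 settings (adjusted p = 0.0132, 0.0338 and 0.00925). The step to the medium passed narrowly (log2 difference -0.62, SE 0.258, edgeR adjusted p = 0.0449) and was lost in 11 of 19 other settings, among them the removal of any of the 3 normal libraries, of aging replicates 1 or 3, or of medium replicates 1 or 3. Against normal RGCs, aging RGCs + USCs medium were 54.0% lower (log2 difference -1.12, SE 0.244, edgeR adjusted p = 0.000256), and this call was kept in every setting tried. An unclassified transcript lies opposite Spry1.

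Etv4 and Etv5 encode closely related ETS family transcription factors of the PEA3 group, which growth factor signalling induces. Etv5 (ENSMUSG00000013089, chr16:22381309-22439719, minus strand) stood at 117, 119.6 and 114 CPM in the normal wells, 81.3, 83.8 and 79.0 CPM in the aging wells and 79.6, 80.3 and 78.3 CPM in aging RGCs + USCs medium. All treated wells lay below all normal ones, and the treated groups overlapped. Etv5 fell by 30.3% in aging RGCs (log2 difference -0.52, SE 0.0414, edgeR adjusted p = 3.32e-11), and medium against aging gave -0.036 (95% interval -0.12 to 0.052, edgeR adjusted p = 0.505).

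Etv4 (ENSMUSG00000017724, chr11:101769742-101785371, minus strand) did not pass the test in any of the 3 comparisons. Its values were 137, 139.9 and 142 CPM in normal RGCs, 147, 144 and 138 CPM in aging RGCs, and 140.4, 142 and 140.0 CPM in aging RGCs + USCs medium, and the 3 groups overlapped. The log2 differences were 0.032 (95% interval -0.044 to 0.11) in aging against normal RGCs, -0.023 (95% interval -0.099 to 0.053) in medium against aging, and 0.0086 (95% interval -0.067 to 0.084) in medium against normal, where the sign turned to -0.092 on library totals without TMM factors (edgeR adjusted p = 0.0333) and to -0.027 with upper-quartile factors. In medium against aging, Etv4 was called lower without TMM factors (-0.10, edgeR adjusted p = 0.0224) and in the 3 limma settings on FPKM, which carry no TMM factors either (adjusted p = 0.0243 to 0.031). That scaling without TMM moved the median of all genes in medium against normal by -0.1 on the log2 scale, to -0.113.

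Phlda1 (ENSMUSG00000020205, chr10:111506286-111508645, plus strand), a pleckstrin homology-like protein whose transcript is induced by growth factors, had, of the 10 genes, the log2 difference farthest from 0 between aging and normal RGCs. It stood at 50.7, 56.4 and 55.0 CPM in the normal wells, 36.0, 39.1 and 35.6 CPM in the aging wells and 24.9, 28.7 and 26.3 CPM in aging RGCs + USCs medium. The groups did not overlap at either step. Phlda1 fell by 31.6% in aging RGCs (log2 difference -0.55, SE 0.0616, edgeR adjusted p = 2.56e-08) and fell by 27.8% with the medium (log2 difference -0.47, SE 0.0669, edgeR adjusted p = 9.89e-07). In aging RGCs + USCs medium it was 50.7% below normal RGCs, a log2 difference of -1.02 with an edgeR adjusted p of 8.55e-14. A long noncoding RNA gene lies opposite Phlda1.

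**Figure D2:**
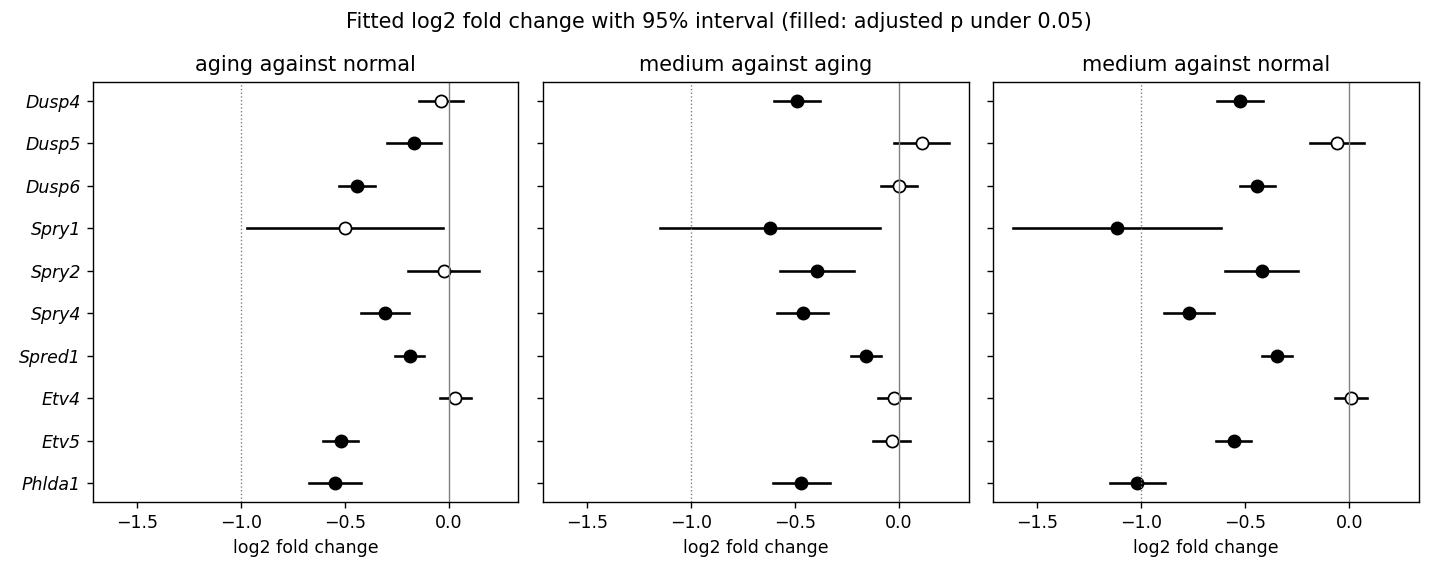
Log2 difference (horizontal axis) of each feedback gene in aging against normal RGCs, medium against aging and medium against normal, with 95% intervals from edgeR's quasi-likelihood fit. The intervals of Dusp6 and Etv5 span 0 in medium against aging, those of Dusp4 and Spry2 span 0 in aging against normal, and those of Etv4 span 0 throughout.

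The 10 genes thus fell into 4 kinds by their calls at both steps. Spry4, Spred1 and Phlda1 were lower at each step, as were 4.87% of all genes tested. Dusp5, Dusp6 and Etv5 were lower on D-galactose and not called with the medium, as were 8.99% of all genes. Dusp4, Spry1 and Spry2 were not called on D-galactose and lower with the medium, as were 12.8%, and Etv4 was called at neither step, as were 28.6%. None of the 6 called lower on D-galactose was called higher with the medium. Of the 2788 tested genes that were lower on D-galactose, 1105 were then higher with the medium (9.10% of all genes tested).

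A call at one step and none at the other does not show that the steps differ, so the difference between them, medium minus aging against aging minus normal, was itself tested over all genes. This test was added after the values had been seen. It passed for 5 of the 10, where 45.2% of all genes passed, 23.1% with a lower and 22.1% with a higher second step. The second step was higher than the first for Etv5 (0.48, edgeR adjusted p = 4.44e-06), Dusp6 (0.44, edgeR adjusted p = 1.63e-05) and Dusp5 (0.28, edgeR adjusted p = 0.0444). It was lower for Dusp4 (-0.45, edgeR adjusted p = 0.000189) and Spry2 (-0.37, edgeR adjusted p = 0.0399). For Dusp5 and Spry2 it was lost in 11 and 10 of 18 other settings, aging replicate 1 and medium replicate 1 being libraries whose removal lost both and left 3 genes called. For Spry1, Spry4, Spred1, Etv4 and Phlda1 the steps could not be told apart, with 95% intervals of the difference of -0.98 to 0.74, -0.37 to 0.049, -0.092 to 0.15, -0.19 to 0.077 and -0.15 to 0.31.

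Levels were compared between genes per length, in FPKM. Etv4 was first in all 3 groups, at 60.2 ± 0.821 FPKM in normal RGCs, 60.6 ± 2.06 in aging RGCs and 56.5 ± 0.282 in aging RGCs + USCs medium (SD, n = 3). Spred1 at 49.97 ± 1.82 FPKM and Dusp6 at 46.8 ± 0.872 FPKM came next in normal RGCs and kept places 2 and 3 in both other groups. Then in normal RGCs came Etv5 at 30.4, Phlda1 at 28.5 and Dusp4 at 26.5 FPKM, each of which overlapped its neighbour over the 3 wells.

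The rest of the order in normal RGCs was Dusp5 at 21.7 FPKM, Spry4 at 13.4, Spry2 at 11.1 and Spry1 at 1.16, all separate from their neighbours. In aging RGCs Dusp4, at 25.5 FPKM, stood above Etv5 at 20.8 and Phlda1 at 19.2. In aging RGCs + USCs medium Dusp5 at 19.4 and Etv5 at 19.3 FPKM overlapped, and Dusp4 at 17.2 and Phlda1 at 13.1 FPKM came after them. Spry2 and Spry4 overlapped in both treated groups, at 10.8 and 10.7 FPKM in aging RGCs and at 7.74 and 7.32 FPKM with the medium.

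**Figure D3:**
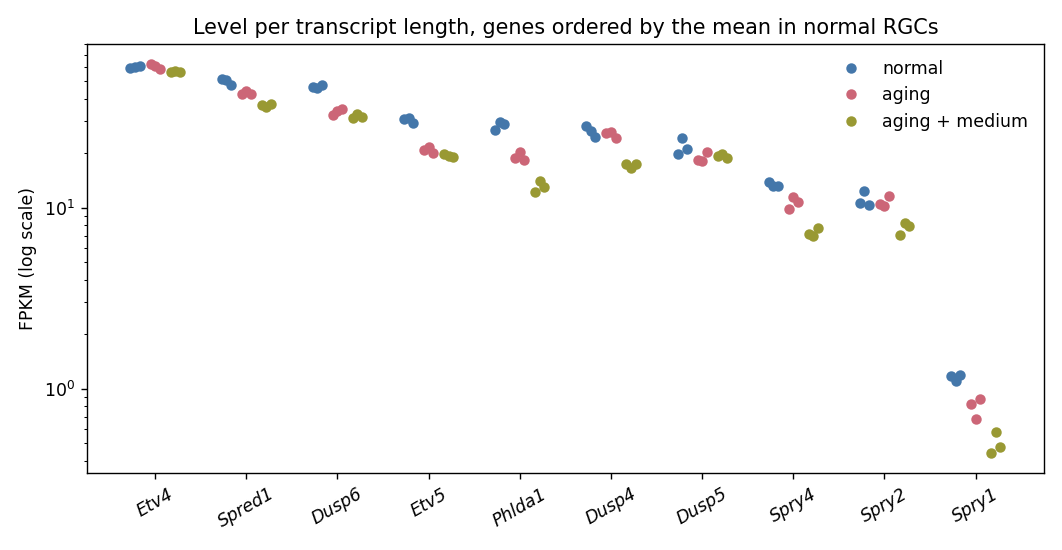
Level of each feedback gene in FPKM (vertical axis, logarithmic) in the 3 groups, with points for wells. Etv4 is highest throughout, at 60.2 FPKM in normal RGCs, and Spry1 is lowest, at 1.16 FPKM.

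Over the 9 libraries the members' log2 CPM moved together to unequal degrees. The median Pearson r over the 45 pairs was 0.786, from -0.438 (Dusp5 with Etv4) to 0.972 (Dusp6 with Etv5), and 36 pairs were above 0. These correlations describe 9 libraries in 3 groups, so they include the differences between groups. With Dusp6, Phlda1 had an r of 0.87, Spred1 0.84, Spry1 0.82, Spry4 0.79, Dusp4 0.50, Spry2 0.49, Dusp5 0.49 and Etv4 -0.38.

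The genes outside the list with the pattern most like Dusp6, by Pearson r of log2 CPM over the same 9 libraries, were Serpinf1 (0.996), Reep6 (0.992), Ccpg1 (0.990), Taok3 (0.988) and Pfkp (0.987). Serpinf1 encodes a secreted neurotrophic factor, and it stood at 33.0 ± 0.392 CPM in normal RGCs, 7.97 ± 0.967 in aging RGCs and 8.59 ± 1.01 in aging RGCs + USCs medium (SD, n = 3). Pfkp, a phosphofructokinase of glycolysis, stood at 462, 348 and 338 CPM in the same order. Such likeness was common, with 456 of 10861 genes ranked (4.2%) reaching an r of 0.9.

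Around these genes, the rest of the pathway was counted from lists of its ligands, receptors, core kinases, other inhibitors and targets. Of 19 tested ligands of receptor tyrosine kinases, 7 were lower and 1 was higher in aging RGCs. As shares these were 36.8% and 5.26%, against 23.0% lower and 23.6% higher over all genes. Fgf21, a fibroblast growth factor with endocrine action, fell from 8.24 to 0.625 CPM (log2 difference -3.71, edgeR adjusted p = 3.16e-13), and Igf1, an insulin-like growth factor, fell from 0.926 to 0.107 CPM (edgeR adjusted p = 0.0037).

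With the medium, 5 ligands were lower and 5 higher than in aging RGCs, a share of 26.3% each way that lies at the background of 26.0% and 27.1% over all genes. Btc, a ligand of the EGF receptor, fell from 28.6 to 9.62 CPM (log2 difference -1.57, edgeR adjusted p = 8.49e-13), and Fgf1 fell from 16.1 to 6.65 CPM (edgeR adjusted p = 4.57e-10). Fgf21 rose to 1.30 CPM (edgeR adjusted p = 0.00575) and Hgf, the ligand of Met, rose from 0.293 to 0.709 CPM (edgeR adjusted p = 0.0446). From normal RGCs to the medium group 7 ligands were lower and 2 higher (36.8% and 10.5%, against 29.9% and 30.6% of all genes). The EGF receptor ligand Areg fell in that comparison from 60.5 to 26.4 CPM (log2 difference -1.20, edgeR adjusted p = 9.4e-14), and Pdgfb, a platelet-derived growth factor, fell from 1.07 to 0.288 CPM (log2 difference -1.85, edgeR adjusted p = 0.0014). Fgf21, Btc and Fgf1 were lower there too, with log2 differences of -2.66, -1.47 and -1.20.

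Of the 11 receptor tyrosine kinases tested, 7 were lower and 1 was higher in aging RGCs, and 2 were lower and 3 higher with the medium. The first were 63.6% and 9.09%, against 23.0% and 23.6% of all genes, and the second 18.2% and 27.3%, near the 26.0% and 27.1% of all genes. From normal RGCs to the medium group 6 were lower and 1 was higher (54.5% and 9.09%, against 29.9% and 30.6%). Met rose in that last comparison from 52.9 to 109 CPM (log2 difference 1.04, edgeR adjusted p = 6.8e-17), and Pdgfrb, a platelet-derived growth factor receptor, fell from 4.90 to 1.15 CPM (log2 difference -2.09, edgeR adjusted p = 4.34e-09). Pdgfrb had also fallen with the medium from its level in aging RGCs (log2 difference -1.31, edgeR adjusted p = 4.24e-05).

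The 20 core genes from RAS to ERK had no common direction: 5 were lower and 5 higher in aging RGCs, 6 and 8 with the medium, and 8 and 8 between the medium group and normal RGCs. Over all genes the lower and higher shares were 23.0% and 23.6%, 26.0% and 27.1%, and 29.9% and 30.6%. None reached an absolute log2 difference of 1.

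Of 22 genes listed as other inhibitors of RAS and ERK, 10 were lower and 1 was higher in aging RGCs. That is a share of 45.5% lower against 23.0% of all genes. The list holds further Dusp genes, relatives of the members, and their selectivity for ERK was not tested. Among relatives of the members the 10 lower genes included Dusp14 (log2 difference -0.58, edgeR adjusted p = 7.62e-08), Dusp2 (-0.44), Dusp16 (-0.40), Dusp8 (-0.39), Dusp1 (-0.24) and Spred2 (-0.12). With the medium 7 were lower and 7 higher (31.8% each way, against 26.0% and 27.1% of all genes). Dusp7, which belongs with Dusp6 to the cytoplasmic ERK phosphatases, rose from 31.9 to 45.3 CPM (log2 difference 0.50, edgeR adjusted p = 5.11e-07), where Dusp6 gave -0.00053, and Spred2 fell with Spred1 (log2 difference -0.15, edgeR adjusted p = 0.0014). Dusp1, Dusp14 and Dusp9 were also higher with the medium, with log2 differences of 0.27, 0.20 and 0.18.

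Il17rd, the receptor-like inhibitor of ERK signalling also called Sef, fell at both steps, with log2 differences of -0.22 (edgeR adjusted p = 0.0029) and -0.61 (edgeR adjusted p = 4.93e-09), and was chosen after its values had been seen. From normal RGCs to the medium group, 11 of the 22 were lower and 3 were higher (against 29.9% and 30.6% of all genes), Dusp7 among the latter (log2 difference 0.65, edgeR adjusted p = 3.19e-09).

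Of 29 other substrates and target genes of ERK, 16 were lower and 6 higher in aging RGCs, 12 lower and 11 higher with the medium, and 14 lower and 7 higher between the medium group and normal RGCs. Lower and higher shares were 55.2% and 20.7%, 41.4% and 37.9%, and 48.3% and 24.1%, against 23.0% and 23.6%, 26.0% and 27.1%, and 29.9% and 30.6% of all genes. Egr1, an immediate-early transcription factor, fell from 75.1 to 37.0 CPM in aging RGCs (log2 difference -1.02, edgeR adjusted p = 5.66e-11). Egr1 then rose with the medium to 52.5 CPM (log2 difference 0.51, edgeR adjusted p = 1.54e-05). That level was still below normal RGCs (log2 difference -0.51, edgeR adjusted p = 2.64e-06). Fos, the partner of Jun in AP-1, rose with the medium from 2.32 to 4.83 CPM (log2 difference 1.05, edgeR adjusted p = 6.56e-05). Epha4, an ephrin receptor, fell with the medium from 4.80 to 2.21 CPM (log2 difference -1.13, edgeR adjusted p = 7.64e-05). Egr2 and Egr3, relatives of Egr1, were lower in the medium group than in normal RGCs, with log2 differences of -1.28 (edgeR adjusted p = 4.99e-06) and -1.07 (edgeR adjusted p = 3.42e-10). Etv1, the remaining PEA3 factor beside Etv4 and Etv5, was not called in aging RGCs (log2 difference -0.11, edgeR adjusted p = 0.061) and fell with the medium from 110.2 to 74.4 CPM (log2 difference -0.57, edgeR adjusted p = 1.08e-10).

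**Figure D4:**
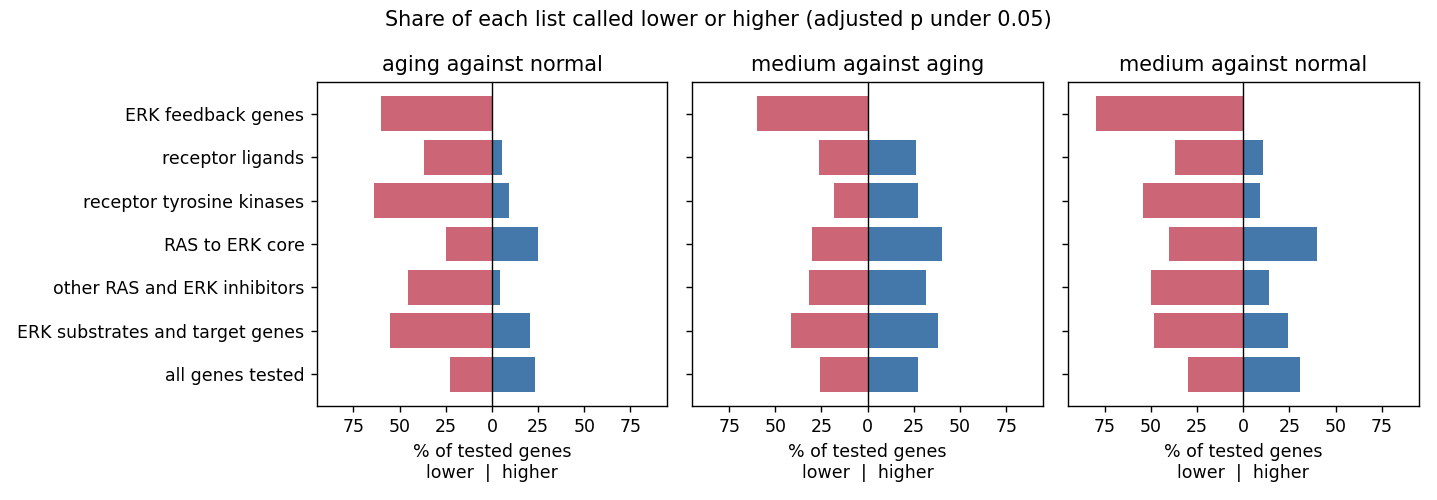
Percent of tested genes called lower or higher (horizontal axis) in the feedback list, the other pathway lists and all genes tested, for each comparison. The feedback genes hold 60.0%, 60.0% and 80.0% lower calls and none higher, against 23.0%, 26.0% and 29.9% lower in all genes. The lists were chosen with earlier results of these data known, and no set test was run.

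Markers of other cell types moved across the same groups, and not all in 1 direction. The sum of 8 epithelial markers was 656 to 711, 636 to 655 and 682 to 709 FPKM in normal, aging and medium wells. Of 4 tested, 2, 0 and 2 were lower and 1, 2 and 1 higher in the 3 comparisons, Krt8 being higher in each. The sum of 6 Mueller glia and astrocyte markers, mostly Vim, was 818 to 863, 948 to 975 and 882 to 940 FPKM. None of the 2 tested was lower, and 1, 1 and 2 were higher. The summed FPKM of 8 mesenchymal markers lay between 95.6 and 109 in the normal wells, between 75.8 and 90.0 in the aging wells and between 49.0 and 55.0 in the wells given USCs medium. Most of it came from Col3a1, and Lum had at most 1 count in any library. Of the 8 mesenchymal markers 4 were tested, and 4, 2 and 3 of these were lower in the 3 comparisons. Over all genes tested 23.0%, 26.0% and 29.9% were lower, and 23.6%, 27.1% and 30.6% were higher. The sum of 9 macrophage markers was 44.7 to 54.4, 35.8 to 39.6 and 23.6 to 39.8 FPKM in the same order, most of it from Cd68, with C1qa, C1qb and C1qc at 0 in aging RGCs. Of those 9, 7 were tested, and 5, 1 and 5 of these were lower in the 3 comparisons. With the medium 2 were higher, Adgre1 at 0.614 ± 0.888 CPM and C1qb at 0.256 ± 0.444 CPM (SD, n = 3). Both lay near the floor with an SD above the mean, so these 2 calls do not show a rise across the wells. In aging RGCs all 5 lower markers were lower by at least 1 on the log2 scale, as were 1.56% of all genes. Cd68 was not called there (log2 difference 0.10, edgeR adjusted p = 0.237). Of 12 markers of retinal ganglion cells 5 were tested, and 4, 1 and 3 were lower and 0, 1 and 1 higher. The sum of all 12 was 61.6 to 63.2, 43.3 to 46.6 and 44.2 to 47.0 FPKM in normal, aging and medium wells. Within that sum Tubb3, a neuronal tubulin, rose with the medium from 2.59 to 21.2 CPM (log2 difference 3.03, edgeR adjusted p = 3.07e-17), and the neurofilament gene Nefl fell from 38.4 to 17.3 CPM (log2 difference -1.15, edgeR adjusted p = 3.99e-13). The part of these markers in the lower levels of the feedback genes was not tested.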

How the data were processed

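The authors deposited, for 22322 genes and 9 libraries made from oligo(dT)-enriched mRNA, an expected count (reads assigned to a gene by estimation, without normalisation) and an FPKM value, scaled to transcript length and library size. The submitters' processing notes name mm10. For the aligner, the counting program and the annotation, names are not given in the sources used. Groups were taken from the sample labels.

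Expected counts were rounded (6.92% to 7.38% of the values of a library had decimals, none of them in the 10 genes) and tested with edgeR 4.0.16 in R 4.3.3: filterByExpr, TMM factors, 1 mean per group over all 9 libraries, the quasi-likelihood F test, and Benjamini-Hochberg adjustment over 12145 genes. Genes were called at an adjusted p under 0.05. The SE is the absolute log2 difference divided by the root of F. Differences were not adjusted over the gene list alone. Depth limited Spry1 most.

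The genes, lists and markers were chosen with earlier results of these data known. All 10 genes were named. Other list genes, except Il17rd, were named only if they passed with an absolute log2 difference of at least 1 or were tested relatives of a member, at most 6 per list and comparison, and the 5 genes most like Dusp6 were taken from genes whose average log2 CPM was 1 or more. Alternatives were DESeq2 1.42.0, no TMM factors, upper-quartile factors, other filters, a fit of the 2 compared groups alone, a block for the replicate number, limma 3.58.1 on log2 FPKM, a fold threshold, and each library left out. Coordinates are from GENCODE M21 on GRCm38 and promoters from RefSeq on GRCm38.p6. Replicate pairs within a group differed by more than sampling noise.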

Additional observations from a re-analysis of the deposited data

How the results depend on the processing

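The numbers of lower genes were 5 to 6 in aging against normal RGCs, 5 to 8 in medium against aging and 8 to 10 in medium against normal under 10 other settings of test, scaling, filter or unit, and none of the 10 was called higher under any of them. With each library left out in turn they were 5 to 6, 5 to 6 and 8 to 8. When an absolute log2 difference of at least 1 was required, the counts were 0, 0 and 2. The difference between steps passed for 3 of 10 genes by DESeq2 and by each limma setting, and for 3 to 4 with a library left out, 3 without aging replicate 1 and 3 without medium replicate 1. Of the members called, 5 of 6, 5 of 6, 8 of 8 and, for the step difference, 3 of 5 kept their call under every setting.

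Differences near 0 changed sign. For Dusp6 in medium against aging they were 0.0077 by DESeq2 and 0.0054 without the low-count filter, and -0.030 to 0.025 with a library left out. For Etv4 in medium against normal they were -0.092 without TMM factors, -0.027 with upper-quartile factors, -0.090 by limma on log2(FPKM + 1) with or without a filter, and -0.091 on log2(FPKM + 0.1). With a library left out, Etv4 in that comparison ranged from -0.0049 to 0.021, Dusp5 in medium against normal from -0.12 to 0.028, Dusp4 in aging against normal from -0.089 to 0.0094, and Spry2 in aging against normal from -0.085 to 0.056. The step difference of Spred1 was -0.026 without TMM factors, -0.0083 by limma on log2(FPKM + 1) with or without a filter and -0.0091 on log2(FPKM + 0.1), and that of Spry1 was 0.010 by limma on log2(FPKM + 1) with or without a filter and -0.31 to 0.073 with a library left out. The cause was not tested.

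Same-numbered wells did not deviate together (r of -0.037 to 0.048 over genes), and the numbers were not taken as pairs. With the replicate block 6, 5 and 8 genes were called in the 3 comparisons and 5 for the step difference, and Spry1 in medium against aging was no longer called (edgeR adjusted p = 0.0551). Dusp5 in aging against normal was not called by DESeq2 (adjusted p = 0.063) or by limma (adjusted p = 0.0641, 0.0624 and 0.101), and limma called Spry1 there instead.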
